A study of Mus musculus with 4 samples.

Results

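The genes described here build and mark the stroma of the spleen: Tlx1, Nkx2-5, Wt1 and Tcf21, transcription factor genes of the embryonic organ, and Pdgfrb, Col1a1, Col3a1, Madcam1 and Acta2, genes of its mesenchymal, muscular and lymphoid-supporting cells. They were chosen by name and found on the array through their RefSeq accessions. The array held 20284 genes matched in this way, and all 9 members were among the 13933 genes well above background on all 4 arrays. Total RNA came from spleen tissue of ICR mice (an outbred stock) aged 5 days, whose dams had been given carbon black nanoparticles (CB-NP, ultrafine particles of nearly pure carbon) or distilled water. CB-NP was instilled through the nose at 95 microg/kg on gestational days 5 and 9, and control dams received water at 1 mL/kg each time. RNA was pooled within each group, which gave 1 pool for each sex and treatment, 4 in all, each read on 1 single-colour array. Values for the 4 pools are given with the control before the CB-NP pool and males before females. The labels do not say how many animals or litters a pool held. With 1 pool in each group there was no replicate spread within a sex, and in RNA of bulk spleen tissue fewer cells of a type and less RNA per cell cannot be told apart.

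The spleen arises from mesenchyme beside the stomach and dorsal pancreas. Tlx1, Nkx2-5, Wt1 and Tcf21 act in that mesenchyme, and mouse embryos that lack Tlx1, Wt1 or Tcf21 form no spleen or lose it early. The mature stroma holds fibroblastic reticular cells, pericytes, smooth muscle of vessels, capsule and trabeculae, and sinus-lining and marginal reticular cells that guide lymphocytes. MAdCAM-1, the product of Madcam1, is an adhesion molecule of that last group, and in the spleen its expression depends on the homeobox factor NKX2-3.

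All 4 arrays lay on 1 slide and were scanned in 1 run, so array position and group cannot be told apart. Of 59305 spots that were not controls, 57.3% to 59.0% were well above background, and no spot was saturated. Markers of spleen cells were read well: 10 of 10 B and T cell genes and 8 of 8 erythroid genes were well above background on every array. Signals are given in scanner intensity units and levels as log2 of the signal relative to the array's 75th percentile. Each difference carries its scanner error, propagated from the error that the array software assigns to each spot. It was 0.204 for the median gene and the same for many bright genes read on 1 spot. The scanner error is thus close to a fixed scale and not a measured spread, and it does not cover variation between animals. Repeated spots had a median CV (SD over mean) of 4.32% to 4.78% on the 4 arrays. Pancreatic acinar genes, markers of a neighbouring organ, had a summed signal (in units of the 75th percentile) of 18.6 and 14.9 in the male and female control pools and of 1.69 and 1.67 in the CB-NP pools, and their part in the results below was not tested.

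The question for each sex was which spleen stroma genes differed in offspring after maternal exposure. Of the 9 members, Madcam1 alone stood apart in both sexes, 1.43-fold higher with CB-NP in males and 1.97-fold higher in females. On the log2 scale the largest difference among the other 8 was 0.23 (Wt1) in males and -0.42 (Tcf21) in females. Madcam1 included, none of the 9 reached 2-fold in either sex, beside 0.86% of 14186 genes in males and 1.09% of 14075 genes in females. With quantile normalization, cyclic loess or the authors' scaling, Madcam1 passed 2-fold in females. Of the 9, 4 lay above 0 in males (45.2% of all genes) and 5 in females (43.3%). Their median difference was -0.0038 in males, above 0 with cyclic loess, median centring and the authors' scaling, and 0.16 in females, beside medians of -0.02 and -0.04 over all genes. Col3a1 and Madcam1 were above 0 in both sexes (27.8% of all genes), Tlx1 and Acta2 below 0 in both (39.4%), and the other 5 had opposite signs (32.8%). By a looser mark of 2 scanner errors, set after the values were seen, Madcam1 was past it in males (8.81% of all genes were), and Madcam1 and Tcf21 were past it in females (14.6% of all genes).

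**Figure D1:**
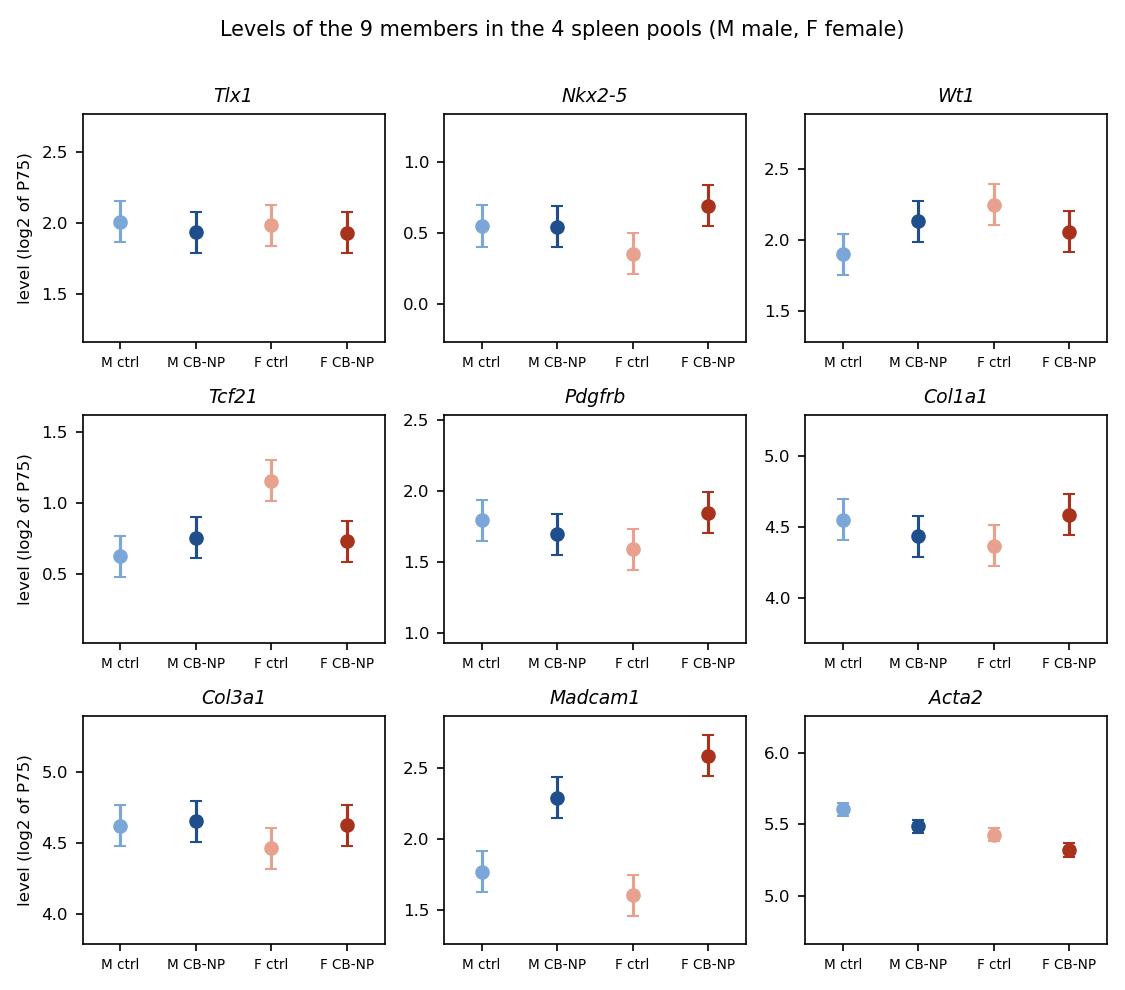
Level of each member (log2 of signal over the array's 75th percentile, main probe) in the control and CB-NP pools of males and of females, 1 pool each; bars are the scanner error of the level, and all panels span the same log2 range. Madcam1 lies at 1.77 and 1.60 in the control pools and at 2.29 and 2.58 in the CB-NP pools, whereas Tlx1 spans 0.08 over the 4 pools.

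Among the transcription factors, Tlx1, the homeobox gene required for splenic precursor cells to persist, had signals of 1350 (control) and 1300 (CB-NP) in males and of 1550 and 1210 in females. Relative to the 75th percentile these were levels of 2.01, 1.93, 1.98 and 1.93. The range of 0.08 was the narrowest among the members, and 96.6% of 13933 genes had a range at least as wide. Its differences were -0.08 in males and -0.05 in females, both under a scanner error of 0.20, and the female one turned positive with quantile normalization, with cyclic loess and with the authors' scaling. In the main scaling both CB-NP pools lay below both control pools, as they did for 32.7% of all genes.

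Nkx2-5, a homeobox gene best known from the heart and also active in splenic mesenchyme, had signals of 490, 496, 501 and 512, in the order given above. Its levels were 0.55, 0.54, 0.35 and 0.69. The male pools did not differ beyond the scanner error (-0.0038, and above 0 with cyclic loess, median centring and the authors' scaling). The female CB-NP pool was higher by 0.34 (scanner error 0.20), and 23.6% of genes had a female difference at least as large.

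Wt1 encodes a zinc finger factor of mesothelium and of the splenic, kidney and gonadal anlagen. Its signals were 1250 and 1490 in the male control and CB-NP pools and 1860 and 1320 in the female ones. The levels were 1.90, 2.13, 2.25 and 2.06, so the female control was highest, the male control lowest and the CB-NP pools lay between them. The CB-NP difference was 0.23 in males and -0.19 in females, each close to 1 scanner error (0.20).

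Tcf21, a basic helix-loop-helix gene of visceral mesenchyme, followed the same order. Its signals were 517, 574, 873 and 526, and its levels 0.63, 0.76, 1.16 and 0.73. The female control stood apart, and the other 3 pools lay within 0.13 of each other. The CB-NP difference of Tcf21 was thus -0.42 in females (scanner error 0.20, 14.9% of genes at least as large) and 0.13 in males. Between the control pools the female was higher by 0.53, and 5.35% of 14164 genes differed at least as much. Both Wt1 and Tcf21 are also genes of mesothelium and of nearby mesenchyme. The measured mesothelial markers (8 of 10 on all arrays, among them Msln and Upk3b) summed to 8.82, 8.30, 7.21 and 7.95 times the 75th percentile in the 4 pools. Msln carried most of that sum. By gene, 2 of 8 lay above 0 in males (median -0.07) and 2 of 8 in females (median -0.20), beside 45.2% and 43.3% of all genes. Upk3b was among the lower ones (-0.13 and -0.34), and Msln was at -0.09 and 0.28. Lrrn4 moved most and was higher in both sexes, by 0.51 and 0.73, at signals of 31.0 to 49.0. Most of these markers were thus lower in the female CB-NP pool, as Wt1 and Tcf21 were, and their part in the result was not tested.

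Genes that act with these factors were read from a list of 15 regulators of spleen patterning, of which 10 were measured in the male and 11 in the female pair. Of those, 9 lay above 0 in males (median 0.16) and 9 in females (median 0.26), beside 45.2% and 43.3% of all genes. Meis1, a partner of HOX proteins, differed by 0.27 and 0.31, and Nr2f2, an orphan nuclear receptor of veins and mesenchyme, by 0.24 and 0.26. Nkx2-3, named for its role in Madcam1 expression with its values known, had signals of 565, 596, 602 and 610. It differed by 0.06 in males, a value that fell below 0 with normexp, and by 0.33 in females. Hoxa9 (0.09 and -0.69) and Nkx3-2 (0.41 and 0.10) were read near background, at signals of 20.0 to 39.8. The small male value of Hoxa9 fell below 0 with normexp and with the mean of all probes, and the small female value of Nkx3-2 with quantile normalization and median centring.

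Among the mesenchymal members, Pdgfrb, the receptor for platelet-derived growth factor B on pericytes and fibroblasts, had signals of 1160, 1100, 1180 and 1140. Its levels were 1.79, 1.69, 1.59 and 1.85, and no pool stood apart. The differences were -0.10 in males and 0.26 in females, beside scanner errors of 0.20. Pdgfb, which encodes a ligand of this receptor, was higher in both CB-NP pools by 0.42 and 0.50, and another probe gave 0.28 and 0.82. Ccn2, a matrix-associated growth factor gene responsive to TGF-beta, was lower by -0.28 and -0.61. The 11 measured genes of PDGF and TGF-beta signalling had medians of -0.02 and 0.003. Of these genes 5 lay above 0 in males and 6 in females, beside 45.2% and 43.3% of all genes. Normexp and median centring turned the sign of both medians, and the authors' scaling that of the male one.

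Col1a1, the major chain of type I collagen, had signals of 7870, 7370, 8100 and 7620. Its levels of 4.55, 4.44, 4.37 and 4.59 gave differences of -0.12 in males and 0.22 in females. Col3a1, the chain of the reticular type III collagen of lymphoid organs, had signals of 8230, 8550, 8630 and 7810. Its levels were 4.62, 4.65, 4.46 and 4.62, so both CB-NP pools lay above both control pools by the main scaling, although the male control and female CB-NP levels both rounded to 4.62. That order held for 21.8% of all genes. The differences of Col3a1, 0.03 and 0.16, were under the scanner error of 0.20 in both sexes.

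By the main scaling the female control was the lowest of the 4 pools for Pdgfrb, Col1a1 and Col3a1. The same held for Nkx2-5 and for the main probe of Madcam1. Before scaling, the signals of Pdgfrb, Col1a1 and Col3a1 were highest in that pool, which had a 75th percentile of 392 beside 317 to 340 elsewhere. With median centring Col1a1 lay at -0.077 in CB-NP males and -0.067 in control females, each relative to control males. Its lowest pool was then that of CB-NP males. The 15 other genes of fibrillar collagen and its maturation measured in each pair had medians of -0.08 in males and 0.09 in females, and the female median turned negative with median centring and with the mean of all probes. Col1a2, the partner chain of Col1a1, was at 0.04 and 0.10, the latter below 0 with normexp and median centring. Serpinh1, the collagen chaperone HSP47, was at 0.08 and 0.39. Col5a3 was at -0.85 and -0.02, at signals of 46.7 to 82.7, the latter above 0 with normexp and the authors' scaling. Of the 15, 4 were above 0 in both sexes and 6 below 0 in both, beside 27.8% and 39.4% of all genes. Interstitial matrix genes had medians of -0.06 and 0.08 over 18 genes, the female median below 0 with median centring. Fbln1, a fibulin of elastic matrix, was higher in both sexes by 0.46 and 0.78, and another probe gave 0.31 and 0.48. Lum, a small proteoglycan that organises collagen, was at -0.82 in males and 0.25 in females, at signals of 66.8 to 130. Basement membrane genes had medians of 0.13 and 0.14 over 12 genes, and Lama5, a laminin chain of vessel and epithelial basement membranes, was at 0.29 and 0.68.

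Acta2, smooth muscle actin of vessels and of the capsule, was printed as 10 spots per array, so its reading was the most precise of the members. The spots averaged 16320 ± 702 (SD, n = 10 spots) and 15270 ± 598 (n = 10) in the male control and CB-NP pools. In the female ones they averaged 16870 ± 723 (n = 10) and 12662 ± 507 (n = 8, without 2 outlier spots). These are repeat readings of 1 pool and not replicates. The levels were 5.61, 5.49, 5.43 and 5.32. The CB-NP pools were lower by -0.12 (scanner error 0.06) in males and -0.11 (0.07) in females, and the female pools lower than the male pools by -0.18 in controls and -0.17 in CB-NP. In this scaling the CB-NP differences exceeded the scanner error. With quantile normalization, with cyclic loess and with the authors' scaling they were under it, at -0.04, -0.05 and -0.06 in males and -0.0014, 0.0020 and -0.011 in females. They were small among genes, since 56.6% of genes in males and 70.2% in females differed at least as much.

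**Figure D2:**
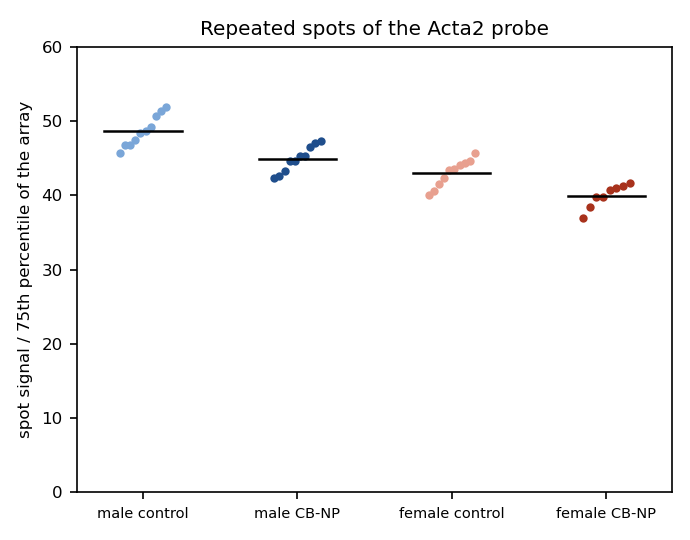
Signal of each Acta2 spot not marked as an outlier divided by the 75th percentile of its array, in the 4 pools (10, 10, 10 and 8 spots; bars are means, and the axis starts at 0). The means were 48.7, 44.9, 43.0 and 39.9.

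The 14 measured contractile genes of smooth muscle had medians of 0.01 in males, where 7 lay above 0, and -0.07 in females, where 5 did. Of all genes, 45.2% lay above 0 in males and 43.3% in females. The female median of the contractile genes was above 0 with the authors' scaling. Actg2, the enteric smooth muscle actin, was at 0.08 and -0.53 and Cnn1, calponin, at 0.04 and -0.39. Neither was lower in the male pair. Pericyte and fibroblast markers had medians of -0.02 and 0.27 over 14 genes. The male median turned positive with quantile normalization, cyclic loess, median centring, the authors' scaling and the mean of all probes. Thy1, which T cells also express, was at 0.18 and 0.90.

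Madcam1 had signals of 1140 (control) and 1660 (CB-NP) in males and of 1190 and 1900 in females. Its levels were 1.77, 2.29, 1.60 and 2.58, so both CB-NP pools lay above both control pools, which did not differ beyond the scanner error (-0.16, error 0.20). The difference was 0.52 in males (2.55 scanner errors) and 0.98 in females (4.81 scanner errors). In the same direction, 3.43% of genes in males and 0.718% in females went as far. Only 31 of 13933 genes (0.222%) were at least as high as Madcam1 in both sexes. A further Madcam1 probe was dim, with signals of 43.4, 59.3, 74.8 and 67.4. It gave 0.43 in males (scanner error 0.22) and 0.16 in females (scanner error 0.21), so its female difference was under the error. It put the female control 0.56 above the male control. The direction of the CB-NP difference was the same with both probes, and the order of the pools was not. The mean of both probes gave 0.47 in males and 0.57 in females, and put the female control above the male control by 0.20.

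**Figure D3:**
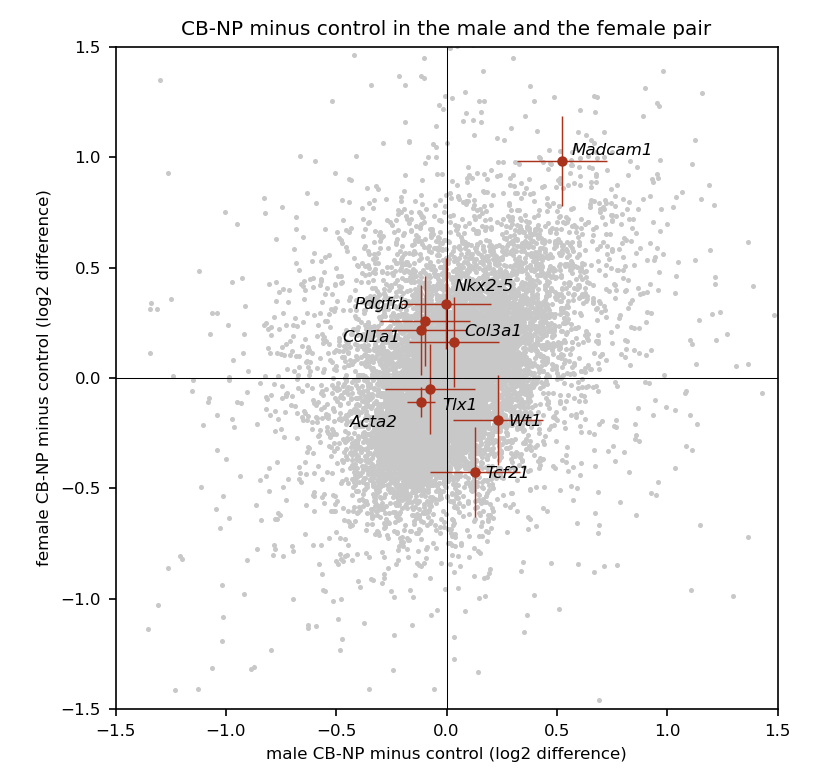
Log2 difference CB-NP minus control in the male pair (horizontal) and the female pair (vertical); grey points are the genes well above background on all 4 arrays, red points the 9 members with their scanner errors. Axes are limited to 1.5 in each direction, so more extreme genes are not shown. Madcam1 lies at 0.52 and 0.98, and the other members lie around the origin.

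The proximal promoter of Madcam1 is shown because this member had the widest range over the pools, beside that of Tlx1, which had the narrowest. Both are RefSeq windows of 300 bases on GRCm38.p6, from 250 bases before the transcript start to 50 bases after it, on the plus strand, at chr10:79664309-79664608 for Madcam1 and chr19:45150465-45150764 for Tlx1. Capitals mark matches on either strand to a site of the NF-kB type (GGG, any 2 bases, then TTTCC) and to AAGTG, the core read by NKX2 factors.
Madcam1: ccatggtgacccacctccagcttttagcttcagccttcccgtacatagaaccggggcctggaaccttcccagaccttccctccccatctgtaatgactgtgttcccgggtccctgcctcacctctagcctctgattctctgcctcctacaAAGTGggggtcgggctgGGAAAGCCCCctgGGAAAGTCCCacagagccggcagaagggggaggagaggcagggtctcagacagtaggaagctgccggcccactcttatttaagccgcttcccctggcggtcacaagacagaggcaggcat
Tlx1: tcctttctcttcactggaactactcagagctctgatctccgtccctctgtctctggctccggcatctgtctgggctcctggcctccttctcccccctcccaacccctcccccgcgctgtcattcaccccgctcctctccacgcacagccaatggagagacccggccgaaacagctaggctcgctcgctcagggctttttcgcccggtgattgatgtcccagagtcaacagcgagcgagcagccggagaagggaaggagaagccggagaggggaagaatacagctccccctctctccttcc

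The Madcam1 window held 2 matches of the NF-kB type on the minus strand, which read GGAAAGCCCC and GGAAAGTCCC on the strand shown and began 83 and 70 bases before the start. They did not overlap. Of 32851 promoter windows of this length, 1.63% held at least 1 such match and 0.0304% (10 windows) held 2 or more. An AAGTG match began 100 bases before the Madcam1 start, and 46.4% of windows held at least 1. Promoters of 6 members were searched (Tlx1, Nkx2-5, Tcf21, Col3a1, Madcam1 and Acta2). No entry was found for Wt1 and Col1a1, and Pdgfrb was not searched. Of those 6, only Madcam1 held a match of the NF-kB type, and Madcam1 and Col3a1 matched AAGTG. The motifs were chosen with the expression values known, and a match describes letters in this window and not a bound site.

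Lymphoid stroma genes lay mostly above 0 as well. Of 11 measured genes of this list, 11 lay above 0 in males (median 0.35) and 8 in females (median 0.47), beside 45.2% and 43.3% of all genes. The female median was 0.02 with the mean of all probes. Mfge8, a bridging protein for uptake of dying cells made by follicular stroma and macrophages, had signals of 29600, 48000, 30200 and 49600 and differed by 0.68 and 1.02. Enpp2, the autotaxin gene, differed by 0.80 and 0.63. The chemokine genes Ccl19, which draws T cells, and Cxcl13, which draws B cells, differed by 0.52 and 0.47 and by 0.42 and 0.52. Cr2, a complement receptor of follicular dendritic cells and of B cells, was at 0.59 and 0.68, but another probe gave 0.46 and -0.91.

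Other genes of this list were uneven between the sexes or lay near 0. Tnfrsf11a, which encodes the receptor RANK, was at 0.07 and 0.61, and the adhesion gene Icam1 at 0.35 and -0.11, the latter above 0 with normexp. The lymphotoxin beta receptor gene Ltbr was at 0.10 and 0.02, the latter below 0 with normexp and median centring, and the adhesion gene Vcam1 at 0.02 and -0.05, the latter above 0 with the same settings as Tlx1. The integrin of lymphocytes that binds MAdCAM-1 is formed by the products of Itga4 and Itgb7. Itgb7 was higher with CB-NP by 0.42 and 0.50. Itga4 was at -0.11 and -0.05, the latter above 0 with those settings and with the mean of all probes, since another probe gave -0.16 and 0.35.

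Markers of other cell types moved to different degrees beside Madcam1. The 10 B and T cell markers summed to 66.6 and 63.7 times the 75th percentile in the male and female control pools and to 104.9 and 102.5 in the CB-NP pools, with 8 of 10 above 0 in males and 10 of 10 in females. Ms4a1, the CD20 gene of B cells, was at 0.92 and 0.61. The 14 endothelial markers, all well above background on every array, summed to 127.0 and 123.5 in the control pools and 129.3 and 134.3 in the CB-NP pools. By gene, 11 of 14 lay above 0 in males and 12 of 14 in females, with medians of 0.14 in both. Of all genes, 45.2% and 43.3% lay above 0. Erythroid markers summed to 486 and 481 in the control pools and 455 and 472 in the CB-NP pools. By gene, 1 of 8 lay above 0 in each sex, with medians of -0.08 in males and -0.15 in females. Below 0 in both sexes were 6 of 8, beside 39.4% of all genes. Of 7 adipocyte markers, 3 were above background on no array and 2 were measured in each pair (Fabp4 at 0.09 and 0.35, Cfd at 0.34 and 0.36). Of 10 markers of skeletal and heart muscle, 3 were above background on no array and 7 on all 4, with medians of 0.10 and 0.28. The part of lymphocyte content in the Madcam1 difference was not tested.

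**Figure D4:**
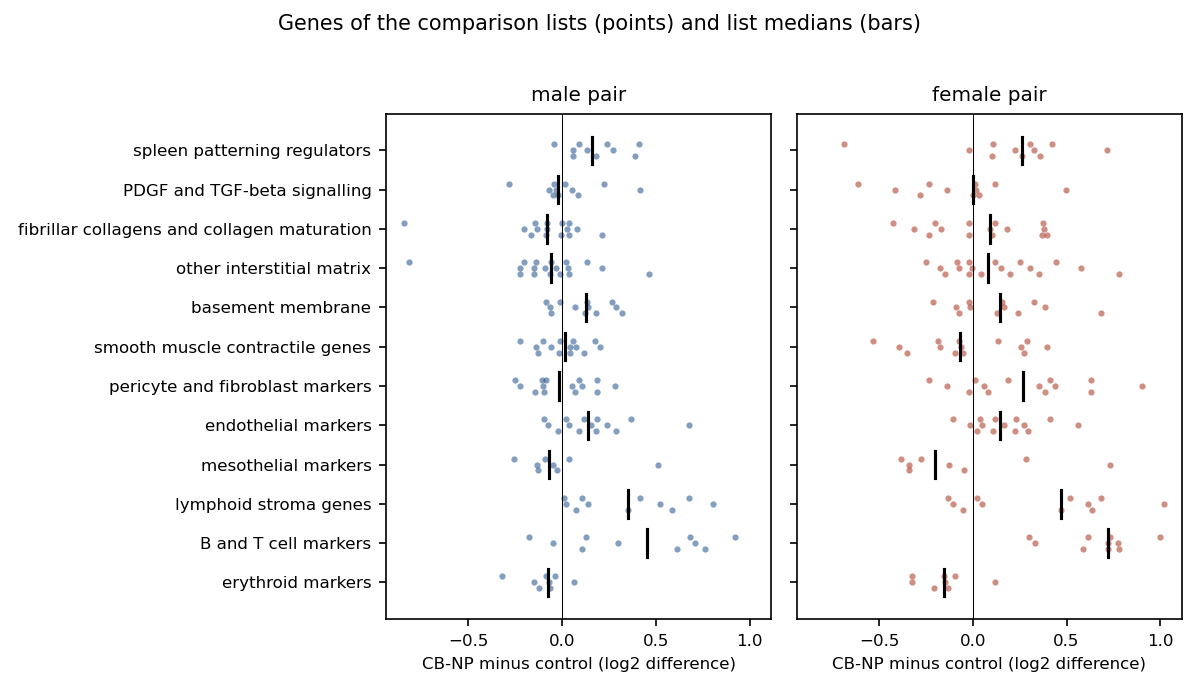
Log2 difference CB-NP minus control in the male pair (left) and the female pair (right) for the genes of 12 lists; each point is 1 gene well above background in both pools of the pair, and black bars are list medians. Lymphoid stroma medians were 0.35 and 0.47 and B and T cell medians 0.45 and 0.72, whereas smooth muscle medians were 0.01 and -0.07.

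The genes whose pattern over the 4 pools was most like that of Madcam1, by the root mean square difference of centred levels among 13933 genes, were Gimap3 (0.015), Gm11346 (0.036), Tlr1 (0.052), Kcnj16 (0.053) and St6gal1 (0.056). The pattern covers 4 pools only. Gimap3, a GTPase gene of lymphocytes, differed by 0.56 and 0.99, Tlr1, a Toll-like receptor gene, by 0.44 and 0.87, and St6gal1, a sialyltransferase gene, by 0.66 and 0.95.

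The sexes were compared within each treatment. Between the control pools, 2 of 9 members lay above 0 (52.4% of all genes), with a median of -0.16 beside 0.01 over all genes. Wt1 and Tcf21 were higher by 0.35 and 0.53. None reached 2-fold, beside 0.777% of genes, and Tcf21 and Acta2 were past 2 scanner errors, beside 8.23%. The signs of the Tlx1 and Madcam1 differences turned with the setting (Tlx1 with normexp and median centring). Between the CB-NP pools 4 of 9 members lay above 0 (43.0% of all genes). The median was -0.0025 (above 0 with 4 alternatives), and differences ran from -0.17 (Acta2) to 0.30 (Madcam1). None reached 2-fold, beside 0.659% of genes. Acta2 alone was past 2 scanner errors, beside 5.59%. Its error, averaged over its repeated spots, was 0.06 in controls and 0.07 in CB-NP, beside 0.20 for the median member. In size, 33.6% of genes in controls and 30.6% in CB-NP differed between the sexes at least as much as Acta2. These comparisons share arrays with those of CB-NP against control. A gene high in the female control, such as Tcf21, therefore appears in both.

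The male and female pairs could be joined in a model with treatment and sex as terms, which leaves 1 residual degree of freedom over 4 arrays. By limma with Benjamini-Hochberg adjustment over 14502 genes, no member was called for CB-NP, and 12 genes (0.0827%) were. Madcam1 had a log2 difference of 0.75 (SE 0.15), higher in 2 of 2 pairs, with an unadjusted p of 0.0117 and an adjusted p of 0.31 by limma. At an unadjusted p under 0.05, Madcam1 was the 1 member of 9, beside 13.8% of all genes. Over the alternatives its adjusted p ran from 5.74e-06 to 0.705, and it was called with normexp (5.74e-06), median centring (0.0446) and an intensity trend (0.0164). With normexp and median centring the fit gave all genes 1 shared variance (SE 0.127 and 0.218). Those p-values therefore did not use the spread of Madcam1 itself. For the other 8 members the adjusted p was between 0.539 and 0.946, and their differences lay between -0.15 (Tcf21, SE 0.17) and 0.17 (Nkx2-5, SE 0.13). No member was called for sex (0.0276% of genes were), and none had an unadjusted p under 0.05, beside 5.78% of genes.

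In the same model no gene of the 12 lists plotted or of the MAdCAM-1 receptor list was called in either direction. Of 10 pancreatic acinar genes tested, 2 were called lower with CB-NP by limma, Amy2a5 (amylase, adjusted p 0.017) and Spink1 (a trypsin inhibitor, 0.0438), and 9 were lower at an unadjusted p under 0.05. At that unadjusted p, which 13.8% of all genes passed, there were 5 of 11 lymphoid stroma genes and 6 of 10 B and T cell markers, all higher with CB-NP. Of spleen patterning regulators 2 of 11 were higher, a share near that of all genes, and of basement membrane genes 3 of 12. Of smooth muscle and of pericyte and fibroblast genes, 0 of 14 each had an unadjusted p under 0.05.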

How the data were processed

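Each of 4 pools was read on 1 array. Agilent arrays of design 028005 (build mm9) were read with Feature Extraction 10.10.1.1, per the file headers. The deposited processed signal is an intensity from which background and spatial trend had been removed array by array, with no normalization across arrays. Normexp used the deposited median-pixel intensity of spot and local background. The deposited value table holds the same intensity times 1 constant per array (3.10, 3.18, 2.64 and 3.49, within 0.5%), with column medians of 75.2, 76.1, 68.9 and 79.4; the target of that scaling is unknown.

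Here log2 processed signals were centred on each array's 75th percentile of non-control spots, and unflagged spots of a probe were averaged. Of 55681 probes, 26762 matched a gene by RefSeq accession (GRCm38.p6 tables, names and chromosomes only). A gene took its probe with the highest mean signal, and entered a comparison when well above background on both arrays. From each list, the genes to name were up to 4 with the largest mean size of CB-NP difference over the sexes, and any 2-fold in either sex; not all are given, and 1 gene of a list is not reported here. Nkx2-3, Col1a2, Cxcl13, Ltbr, Vcam1, Icam1, Tnfrsf11a, Msln, Amy2a5 and Spink1 fell outside this rule and were named after their values were seen. The members, lists and motifs were chosen with earlier results of these data known. The model was fitted by limma 3.58.1 in R 4.3.3, with genes detected on 2 or more arrays. Tested on simulated data for the CB-NP effect (14502 genes), it called 1 of 100 genes with a log2 change of 1 and 76 of 100 with a change of 2, with 7 false calls. Precision is limited by the number of arrays. The 1 residual degree of freedom holds the gap between the male and female CB-NP differences, which limma combines with the variance over all genes. The p-values thus rest on how alike the pairs were, and they measure no spread between animals or replicate pools. Alternatives were normexp, quantile, cyclic loess, median centring, the authors' scaling, all probes, detection filters and an intensity trend. Python 3.11.15 with pandas 2.3.3 was used.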

Additional observations from a re-analysis of the deposited data

Results flagged for a closer look

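For 5 of the 9 members the CB-NP difference had opposite signs in the male and the female pair, as it did for 32.8% of all genes. The female difference minus the male difference was 0.34 for Nkx2-5, -0.42 for Wt1, -0.55 for Tcf21, 0.35 for Pdgfrb and 0.33 for Col1a1, each with a scanner error of 0.29. With 1 pool in each group, the difference between the sexes was not tested. Of all genes, 8.49% were at least as far apart as Tcf21 and 14.4% as far as Wt1. For Nkx2-5 the male value lay at -0.0038 and its sign turned with the scaling.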

How the results depend on the processing

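No member reached 2-fold in any comparison, except Madcam1 in females, where 1 member did so with quantile normalization, with cyclic loess and with the authors' scaling. Madcam1 stayed above 0 under every alternative run, between 0.47 and 0.58 in males and between 0.57 and 1.07 in females. The mean of its 2 probes gave the lowest values. Of 252 recomputed member differences, 9 moved by a scanner error or more, and 17 changed sign, none of them larger than 0.16 at first. The setting without a filter repeated the main values of every member, and the mean of all probes could move Madcam1 alone. These values, which could not change, are counted among the 252. Median centring moved the median of all genes in females from -0.04 to -0.16. It moved genes called for CB-NP by limma from 12 to 347 and for sex from 4 to 181. Normexp gave 612 and 77 genes, and an intensity trend 381 and 16. Quantile normalization and cyclic loess gave 3 each and the authors' scaling 2 for CB-NP. Without a filter, or with genes well above background on all 4 arrays, 0 genes were called by limma for either effect (1363 and 2114 at an unadjusted p under 0.05 for CB-NP, 837 and 801 for sex). Madcam1 was the only member ever called, at 0.70 with normexp, 0.72 with median centring and 0.75 with an intensity trend. With normexp and median centring all genes shared 1 variance in the fit, as given above. The causes of these shifts in medians and calls were not tested. Slide was not run as a block, since all arrays shared 1 slide. Probes near background, such as Hoxa9 and the dim Madcam1 probe, limit what can be read from them.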
